A study of Mus musculus with 12 samples.

Results

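The Notch receptors Notch1, Notch2 and Notch3, the ligands Jag1, Jag2 and Dll1, the DNA-binding partner Rbpj and the targets Hes1, Hey1 and Heyl were followed in RNA-seq counts from the skin epidermis of newborn mice. These 10 genes were taken by symbol from a table of 46078 genes, each symbol matching a single gene, and 9 of them passed the filter on low counts. Each of the 12 libraries came from its own mouse, as the design text has it, and the 4 groups held 3 each. Llgl cKO Trp53 het mice carried K14-Cre with Llgl1/2 flox/flox and Trp53 +/flox, Llgl cKO mice carried K14-Cre with Llgl1/2 flox/flox, Trp53 het mice carried K14-Cre with Trp53 +/flox, and controls carried K14-Cre alone. All 4 groups therefore carried the K14-Cre transgene, whose keratin 14 promoter drives Cre recombinase in basal keratinocytes and the cells derived from them, so other cell types of the tissue were not targeted. Llgl1 and Llgl2 encode cell polarity proteins and Trp53 encodes the p53 tumour suppressor. The question was how transcription in epidermis changes with mutation of Llgl1/2, with and without loss of 1 Trp53 allele.

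Notch receptors are surface proteins that bind Jagged or Delta ligands on a neighbouring cell. Ligand pulling on the receptor exposes it to cleavage by ADAM10 and then by gamma-secretase, and the freed intracellular domain enters the nucleus, binds RBPJ and switches on genes such as those of the Hes and Hey repressors. In epidermis the pathway is known for promoting the exit of basal keratinocytes into the spinous layer, and Notch1 acts as a tumour suppressor in mouse skin. These signalling steps act on proteins, and transcript counts do not measure them.

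Column totals ran from 6738720 to 14509507 counts. The basal keratins Krt5 and Krt14 were abundant in every library, at 7395 CPM or more for Krt5 and 3511 CPM or more for Krt14. CPM are counts relative to TMM-scaled library sizes. Llgl2 lay between 6.12 and 12.4 CPM in Llgl cKO Trp53 het and between 7.63 and 9.69 CPM in Llgl cKO libraries, against 66.5 to 109 CPM in Trp53 het and 65.4 to 109.9 CPM in control libraries. Llgl1 counts were not lower in the floxed groups, at 187 to 248 CPM in Llgl cKO Trp53 het and 218 to 280.1 CPM in Llgl cKO libraries, against 122 to 140.3 CPM in Trp53 het and 115 to 173 CPM in control libraries, so they do not check those labels. Trp53 was 98.3, 67.8 and 65.9 CPM in Llgl cKO Trp53 het libraries 1 to 3 and 112 to 122 CPM in Llgl cKO libraries. It was 61.8, 60.9 and 115 CPM in Trp53 het libraries 1 to 3, against 109 to 130.5 CPM in control libraries. The library labelled Trp53 het 3 thus carried as much Trp53 transcript as controls, and the library labelled Llgl cKO Trp53 het 1 carried the most of its group.

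Promoter sequence is shown for the 3 pathway genes called in the tests, Lfng, Adam10 and Ivl, with that of Rbpj, the only one of the 7 Notch genes searched whose window held the core of the RBPJ recognition sequence. Each run gives the 250 bases before a RefSeq transcription start on the GRCm38.p6 build, 5′ to 3′ on the strand of the gene. Capitals mark TGGGAA, or its reverse complement TTCCCA where the core lies on the other strand.
Rbpj, chr5:53590096-53590345, plus strand: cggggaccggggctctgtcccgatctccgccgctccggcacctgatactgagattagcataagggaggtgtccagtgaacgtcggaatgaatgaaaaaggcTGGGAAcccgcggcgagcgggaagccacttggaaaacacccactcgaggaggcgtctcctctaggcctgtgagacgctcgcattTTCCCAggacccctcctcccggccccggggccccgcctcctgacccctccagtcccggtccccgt
Lfng, chr5:140607091-140607340, plus strand: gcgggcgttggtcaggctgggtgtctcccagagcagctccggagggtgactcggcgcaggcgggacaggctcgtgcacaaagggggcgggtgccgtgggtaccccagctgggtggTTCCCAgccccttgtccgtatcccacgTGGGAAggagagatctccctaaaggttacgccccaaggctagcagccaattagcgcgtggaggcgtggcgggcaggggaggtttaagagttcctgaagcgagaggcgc
Adam10, chr9:70678732-70678981, plus strand: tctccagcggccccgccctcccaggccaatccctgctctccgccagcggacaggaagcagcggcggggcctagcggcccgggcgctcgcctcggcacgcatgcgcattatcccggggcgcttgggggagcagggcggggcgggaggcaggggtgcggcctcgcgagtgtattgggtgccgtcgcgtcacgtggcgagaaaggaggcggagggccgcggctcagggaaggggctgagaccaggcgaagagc
Ivl, chr3:92573736-92573985, minus strand: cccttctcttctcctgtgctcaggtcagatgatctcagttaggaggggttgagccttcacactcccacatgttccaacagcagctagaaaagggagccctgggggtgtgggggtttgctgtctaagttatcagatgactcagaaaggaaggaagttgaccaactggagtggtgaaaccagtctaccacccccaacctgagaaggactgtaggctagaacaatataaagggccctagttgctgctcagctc
Windows from 250 bases before to 50 after a start were searched on both strands, and 7 of the 10 genes had an entry, with 9 windows between them, while Hes1, Hey1 and Heyl were not searched. Rbpj, whose product is the protein that binds this core, held it in both of its windows, and in the one shown it began 149 bases and 65 bases before the start. Lfng, which encodes the lunatic fringe glycosyltransferase that modifies Notch receptors, held it 135 bases and 108 bases before the start, the nearer one within the longer form GTGGGAA. The windows of Notch1, Notch2, Notch3, Jag1, Jag2, Dll1, Adam10 and Ivl held no core. Of all 32851 mouse windows, 25.6% held the core and 6.38% held GTGGGAA, so a match is common and is a description of the letters only.

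Levels of different genes were compared per kilobase of annotated exon. On that scale, over the 12 libraries, Jag2 led with a level of 37.8 ± 6.13 CPM per kb (SD, n = 12), followed by Hes1 at 31.4 ± 8.87, Notch1 at 27.1 ± 3.12 and Notch3 at 23.6 ± 4.09 CPM per kb. Notch2 at 17.3 ± 2.23 and Jag1 at 16.9 ± 2.71 CPM per kb came next, then Dll1 at 10.3 ± 2.11, Rbpj at 3.10 ± 0.385 and Heyl at 3.01 ± 0.918 CPM per kb. Hey1 was last at 0.165 ± 0.0878 CPM per kb. Notch3 lay above Notch2, Jag1 above Dll1, Dll1 above Rbpj and Heyl above Hey1 in 12 of 12 libraries. Jag2 lay above Hes1 in 9, Hes1 above Notch1 in 9 and Notch1 above Notch3 in 10 of the 12. Notch2 lay above Jag1 in only 5 libraries and Rbpj above Heyl in 8, so those neighbours did not differ beyond their spread. The rank order was the same per kilobase of the longest transcript, where Rbpj, whose exons cover 12.8 kb but whose longest transcript is 5.49 kb, had a level of 7.22 CPM per kb and lay above Heyl in 12 of 12 libraries. On that scale Hes1 lay above Notch1 in only 7 libraries and Notch2 above Jag1 in 4, with Jag1 above Dll1 in 10 and Notch1 above Notch3 in 12.

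**Figure D1:**
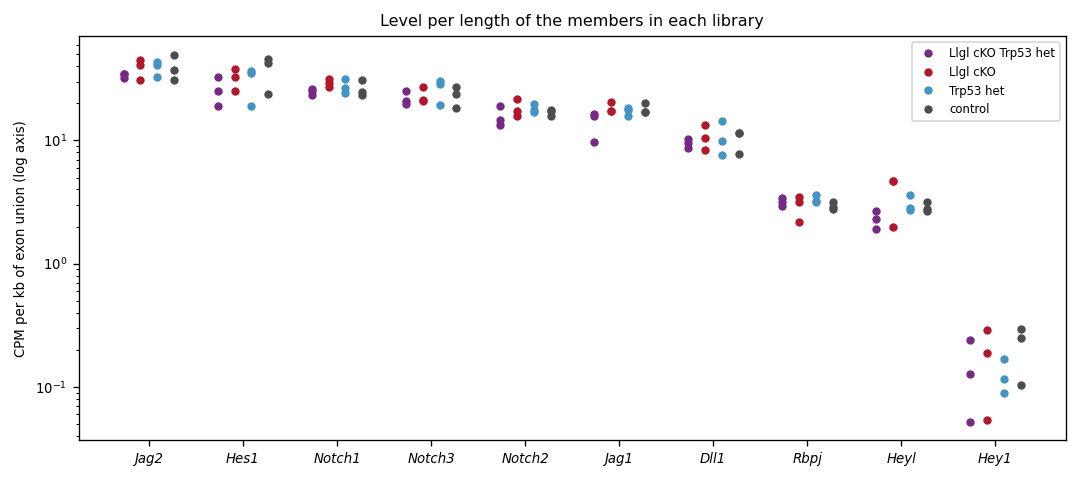
Level per length of the 10 genes, in CPM per kb of exon union on a log axis, with 1 point per library coloured by genotype group and genes ordered by their mean over the 12 libraries. Jag2, Hes1, Notch1 and Notch3 form the upper end, Rbpj and Heyl overlap near 3 CPM per kb, and Hey1 lies far below the other genes.

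None of the 9 tested genes was called in any of the 7 comparisons, at an adjusted p under 0.05 by edgeR's quasi-likelihood test with Benjamini-Hochberg adjustment over 14582 genes. The comparisons were the 5 pairwise contrasts described below, the average Llgl effect, which sets the 6 Llgl cKO libraries of both Trp53 genotypes against the 6 others, and the interaction, which is the Llgl effect in Trp53 heterozygotes minus that with Trp53 intact. Over all genes tested, the share called was 3.33% in the average Llgl effect, 1.25% in Llgl cKO Trp53 het against control, 1.36% in Llgl cKO Trp53 het against Trp53 het and 0.226% in Llgl cKO against control. It was 0% in the other 3 comparisons. With so few genes called, 0 of 9 is near the background. Unadjusted p was under 0.05 for Jag1 and Heyl in Llgl cKO Trp53 het against Llgl cKO, where that held for 5.12% of all genes tested. It held for 0 of the 9 in the other 6 comparisons, against 18.2% of all genes in the average Llgl effect, 13.9% in Llgl cKO Trp53 het against control, 15.4% against Trp53 het, 6.31% in Llgl cKO against control, 0.432% in Trp53 het against control and 2.94% in the interaction. DESeq2 called 0 of the 9 in every comparison, with a smallest adjusted p of 0.353. Without the libraries labelled Trp53 het 3 and Llgl cKO Trp53 het 1, edgeR called 0 of 10, since Hey1 then passed the filter.

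Notch1 (ENSMUSG00000026923, chromosome 2, 26457903 to 26516663, minus strand, GRCm38), a receptor of epidermal keratinocytes, had 331, 375 and 360.3 CPM in Llgl cKO Trp53 het libraries and 417, 450.3 and 384 CPM in Llgl cKO libraries, against 383, 453 and 346 CPM in Trp53 het and 439, 349.5 and 336 CPM in control libraries. Every Llgl cKO library lay above every Llgl cKO Trp53 het library, while each Llgl group overlapped control. Its average Llgl effect was 0.0035 on the log2 scale with a 95% interval from -0.22 to 0.22, an adjusted p of 0.990 by edgeR. Between Llgl cKO Trp53 het and Llgl cKO the log2 change was -0.23 (95% interval -0.54 to 0.083, edgeR unadjusted p = 0.134).

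Notch2 (ENSMUSG00000027878, chromosome 3, 98013527 to 98150361, plus strand), a second keratinocyte receptor, had 144, 159 and 204 CPM in Llgl cKO Trp53 het and 170.4, 188 and 233 CPM in Llgl cKO libraries, against 214, 190.6 and 182 CPM in Trp53 het and 185, 191 and 172 CPM in control libraries. Each group overlapped every other group. The average Llgl effect on Notch2 was -0.051 on the log2 scale (95% interval -0.29 to 0.19, edgeR adjusted p = 0.850).

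Notch3 (ENSMUSG00000038146, chromosome 17, 32120820 to 32166852, minus strand), a receptor known both from suprabasal keratinocytes and from the mural cells around blood vessels, had 159.6, 204 and 169 CPM in Llgl cKO Trp53 het and 169.7, 173 and 221 CPM in Llgl cKO libraries, against 247, 232 and 156 CPM in Trp53 het and 219.6, 192 and 148 CPM in control libraries. The ranges overlapped in all pairs of groups, and the lowest values were those of control 3 and the library labelled Trp53 het 3. Its average Llgl effect was -0.12 on the log2 scale (95% interval -0.43 to 0.19, edgeR adjusted p = 0.699). Of 9 mural cell markers 3 passed the filter and 0 were called in the average Llgl effect, where 3.33% of all genes were. Their median log2 change was -2.33 in Llgl cKO Trp53 het against control, but the 3 ran from -2.39 to -0.077. It was -2.10 against Trp53 het (range -2.32 to -0.39) and 0.19 in Llgl cKO against control (range -0.012 to 0.35). In these comparisons 0 of the 3 were called, against 1.25%, 1.36% and 0.226% of all genes. The summed level of the 9 was 40.5 to 53.5 CPM in Llgl cKO Trp53 het and 47.1 to 92.5 CPM in Llgl cKO libraries, against 59.7 to 66.3 CPM in Trp53 het and 43.5 to 63.2 CPM in control libraries. Among them Rgs5, a defining pericyte marker, was at 0 in all 12 libraries, and Pdgfrb was at 1.26 CPM or less. In bulk tissue, fewer cells of a type and less RNA per cell cannot be told apart, and that holds for each level given here.

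The division of receptor level among the 3 receptors was also compared within each library, a comparison chosen after the values were seen. Notch1 made up 39.9% of the CPM per kb of annotated exon of the 3 receptors on average, Notch3 34.6% and Notch2 25.5%. These shares depend on the length used. Per kilobase of the longest transcript the mean levels were 40.6 CPM per kb for Notch1, 23.8 for Notch3 and 17.7 for Notch2, a larger lead for Notch1. The Notch1 share averaged 40.8% in the 6 Llgl cKO libraries of both Trp53 genotypes and 39.1% in the 6 others (exact two-sided permutation test over 924 splits, p = 0.368, adjusted p = 0.890 over 6 shares). Jag2 made up 58.1% of the summed level of the 3 ligands, Jag1 26.1% and Dll1 15.8%. Per kilobase of the longest transcript their mean levels were 51.6, 17.5 and 12.1 CPM per kb, and shares on that length were not computed. The Jag1 share averaged 25.6% in the 6 Llgl cKO libraries and 26.6% in the 6 others (exact permutation p = 0.660), and none of the 6 shares passed the test.

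Jag1 (ENSMUSG00000027276, chromosome 2, 137081456 to 137116644, minus strand), a Jagged ligand with roles in the hair follicle and the spinous layer, had 91.8, 56.5 and 95.7 CPM in Llgl cKO Trp53 het and 101.1, 119 and 100.7 CPM in Llgl cKO libraries, against 91.3, 106 and 102 CPM in Trp53 het and 99.9, 118.1 and 99.4 CPM in control libraries. All 3 Llgl cKO Trp53 het libraries lay below all Llgl cKO and all control libraries, but they overlapped Trp53 het. Library 2 of that group stood far below its other two. The log2 change was -0.39 against Llgl cKO (95% interval -0.78 to -0.0072, edgeR unadjusted p = 0.0465, adjusted p = 0.951) and -0.38 against control (95% interval -0.77 to 0.0075, edgeR adjusted p = 0.372). Without Llgl cKO Trp53 het library 2 these values were -0.19 and -0.17, so each depended on a single mouse.

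Jag2 (ENSMUSG00000002799, chromosome 12, 112907819 to 112929776, minus strand), the Jagged ligand known from basal keratinocytes, had 243, 225 and 243 CPM in Llgl cKO Trp53 het and 316, 288 and 215 CPM in Llgl cKO libraries, against 285, 299.6 and 228 CPM in Trp53 het and 346, 259 and 216 CPM in control libraries. Its groups overlapped in all pairs, with Llgl cKO Trp53 het the tightest. The average Llgl effect on Jag2 was -0.098 on the log2 scale (95% interval -0.39 to 0.20, edgeR adjusted p = 0.755).

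Dll1 (ENSMUSG00000014773, chromosome 17, 15367354 to 15376872, minus strand), the Delta-like ligand known from basal cells of human epidermis, had 39.9, 36.4 and 43.7 CPM in Llgl cKO Trp53 het and 55.9, 44.2 and 35.4 CPM in Llgl cKO libraries, against 60.7, 41.6 and 32.1 CPM in Trp53 het and 48.7, 48.3 and 33.0 CPM in control libraries. The spread was narrow in Llgl cKO Trp53 het and wide in the other 3 groups, and all groups overlapped. Its average Llgl effect was -0.049 on the log2 scale (95% interval -0.42 to 0.32, edgeR adjusted p = 0.916). Dll1 shares 867 exon bases with A930024N18Rik, Notch1 1068 with 0610009E02Rik and 414 with Gm13568, and Notch3 488 with Gm17276, all on the opposite strand. Since the strand setting of the counting was not given in the sources used here, reads from those bases cannot be assigned. Those partners held 211, 103, 20 and 15 counts over the 12 libraries. Notch2 shares 541 exon bases with Gm42820 on the same strand, where no strand setting separates the reads, and that partner held 122 counts.

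Rbpj (ENSMUSG00000039191, chromosome 5, 53466152 to 53657362, plus strand), the transcription factor on which canonical Notch signalling acts, had 37.6, 40.4 and 43.8 CPM in Llgl cKO Trp53 het and 44.5, 40.7 and 27.6 CPM in Llgl cKO libraries, against 41.4, 46.2 and 40.1 CPM in Trp53 het and 35.3, 40.5 and 37.0 CPM in control libraries. Llgl cKO 3 was the single library below 35 CPM, and the groups overlapped. The log2 change in Llgl cKO against control was -0.00022 (95% interval -0.35 to 0.35), and the average Llgl effect was -0.033 (95% interval -0.28 to 0.22, edgeR adjusted p = 0.914).

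Hes1 (ENSMUSG00000022528, chromosome 16, 30064384 to 30067796, plus strand), a repressor and direct Notch target that keeps spinous cells from differentiating early in mouse embryos, had 51.6, 66.4 and 38.6 CPM in Llgl cKO Trp53 het and 51.6, 66.7 and 77.2 CPM in Llgl cKO libraries, against 74.5, 71.8 and 39.1 CPM in Trp53 het and 93.4, 87.4 and 48.4 CPM in control libraries. Controls 1 and 2 were the highest 2 of the 12 libraries, while control 3 and the library labelled Trp53 het 3 lay within the range of Llgl cKO Trp53 het. The log2 change was -0.55 in Llgl cKO Trp53 het against control (95% interval -1.22 to 0.12, edgeR adjusted p = 0.471) and -0.23 in the average Llgl effect (95% interval -0.71 to 0.24, edgeR adjusted p = 0.621).

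Without control 3 and the library labelled Trp53 het 3, a setting chosen after the data were seen, Hes1 fell by 0.79 in log2 units in Llgl cKO Trp53 het against control (edgeR adjusted p = 0.0447). In that fit 4.09% of all genes tested were called lower in the same comparison, and Hes1 was the only one called of the 9. Its log2 change there was -0.47 in Llgl cKO against control (edgeR adjusted p = 0.290) and -0.49 in Llgl cKO Trp53 het against Trp53 het (edgeR adjusted p = 0.193), neither of them called. Without control 3 alone, Hes1 also had -0.79 in Llgl cKO Trp53 het against control. In the 12 fits with 1 library left out its edgeR adjusted p in that comparison was 0.176 or more. The call thus also needed the removal of the library labelled Trp53 het 3, which is in neither group compared. Both libraries left out had the lowest Hes1 of their groups, so the call is no independent support.

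Heyl (ENSMUSG00000032744, chromosome 4, 123233556 to 123249875, plus strand), a Hey-family repressor best known as a Notch target in vascular smooth muscle, had 13.7, 11.8 and 9.71 CPM in Llgl cKO Trp53 het and 24.1, 24.1 and 10.2 CPM in Llgl cKO libraries, against 14.0, 14.4 and 18.6 CPM in Trp53 het and 13.7, 14.3 and 16.1 CPM in control libraries. Llgl cKO 1 and 2 were the highest of the 12, and Llgl cKO 3 was among the lowest. The Llgl cKO Trp53 het libraries lay below all Trp53 het and, narrowly, all control libraries. Heyl had a log2 change of -0.73 in Llgl cKO Trp53 het against Llgl cKO (95% interval -1.35 to -0.11, edgeR unadjusted p = 0.0245, adjusted p = 0.885) and an interaction of -0.82 (95% interval -1.70 to 0.054, edgeR adjusted p = 1). The summed level of the mural cell markers given above, most of which did not pass the filter, was highest in Llgl cKO 2 and lowest in Llgl cKO Trp53 het 2. The mean log2 level of the 3 tested mural markers, relative to the 12 libraries, was -0.93 to -0.44 in Llgl cKO Trp53 het and -0.27 to 1.12 in Llgl cKO, against 0.045 to 0.52 in Trp53 het and -0.26 to 0.60 in control libraries. Llgl cKO 1, as high in Heyl as Llgl cKO 2, had the value of -0.27, and Llgl cKO 2 that of 1.12. The part of these markers in the Heyl values was not tested.

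Hey1 (ENSMUSG00000040289, chromosome 3, 8663359 to 8667256, minus strand), the related repressor, had 10, 2 and 5 counts in Llgl cKO Trp53 het and 9, 13 and 2 counts in Llgl cKO libraries, against 6, 2 and 5 counts in Trp53 het and 5, 4 and 12 counts in control libraries. It was detected in every library at a level that did not pass the filter. Sums of 17 and 24 counts in the Llgl groups, against 13 and 21 counts in Trp53 het and control, leave no difference detectable at this depth.

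**Figure D2:**
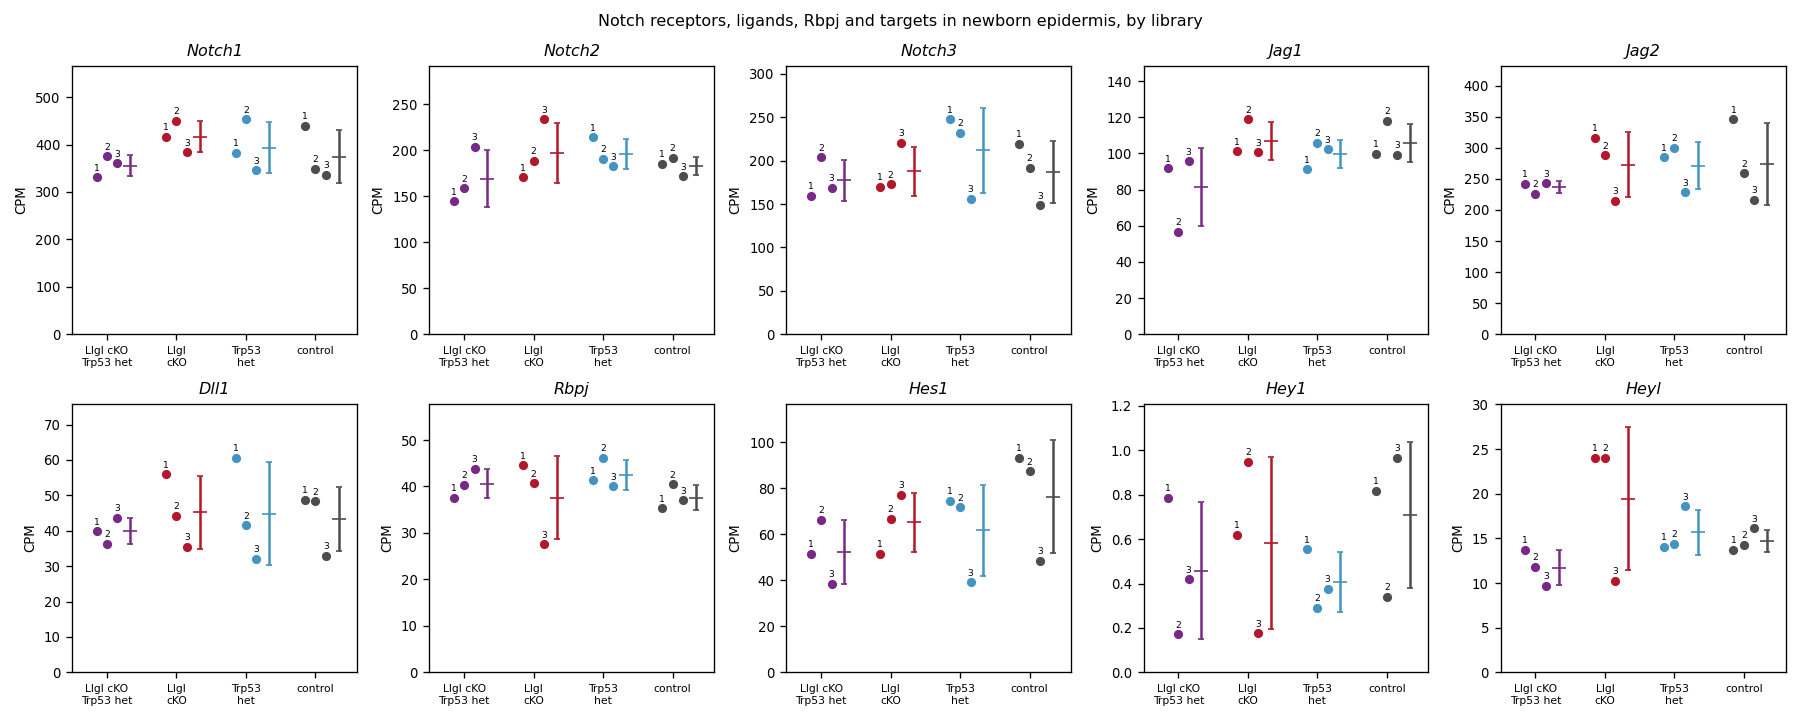
CPM of each of the 10 genes in the 12 libraries, by genotype group, with points numbered by replicate and the group mean ± SD beside them (n = 3). Hes1 shows controls 1 and 2 on top with control 3 and Trp53 het 3 low, Heyl shows Llgl cKO 1 and 2 on top, and Jag1 shows a single low library in Llgl cKO Trp53 het.

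The signs of the 9 log2 changes are given for each comparison as a description, since none passed the threshold. In Llgl cKO Trp53 het against Trp53 het, 0 of the 9 log2 changes were positive and 9 negative, with a median of -0.21, while all genes tested were split at 7317 positive and 7265 negative. In Llgl cKO against control, 6 were positive and 3 negative, with a median of 0.014 (7118 and 7464 over all genes). Llgl cKO Trp53 het against control had 1 positive and 8 negative with a median of -0.11, and against Llgl cKO 1 and 8 with a median of -0.22. Trp53 het against control had 6 positive and 3 negative with a median of 0.072, and the average Llgl effect 1 positive and 8 negative with a median of -0.051. All 9 interaction terms were negative, from -0.82 for Heyl to -0.014 for Hes1, each with an edgeR adjusted p of 1. These comparisons share libraries, so their counts are not independent of each other.

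Groups did not overlap for Jag1 and Heyl, both lower, in Llgl cKO Trp53 het against control, where 9.2% of all genes tested were lower without overlap. The same held for Heyl, lower, against Trp53 het (background 10.7%) and for Notch1 and Jag1, lower, against Llgl cKO (background 5.13%). In Llgl cKO against control (9.8% in either direction), Trp53 het against control (3.02%) and the 6 against 6 comparison (2.5%) it held for 0 of the 9. Intervals were narrowest for Notch1, Notch2 and Rbpj: in the average Llgl effect they reached no further from 0 than -0.29 and 0.22, while that of Hes1 reached -0.71.

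**Figure D3:**
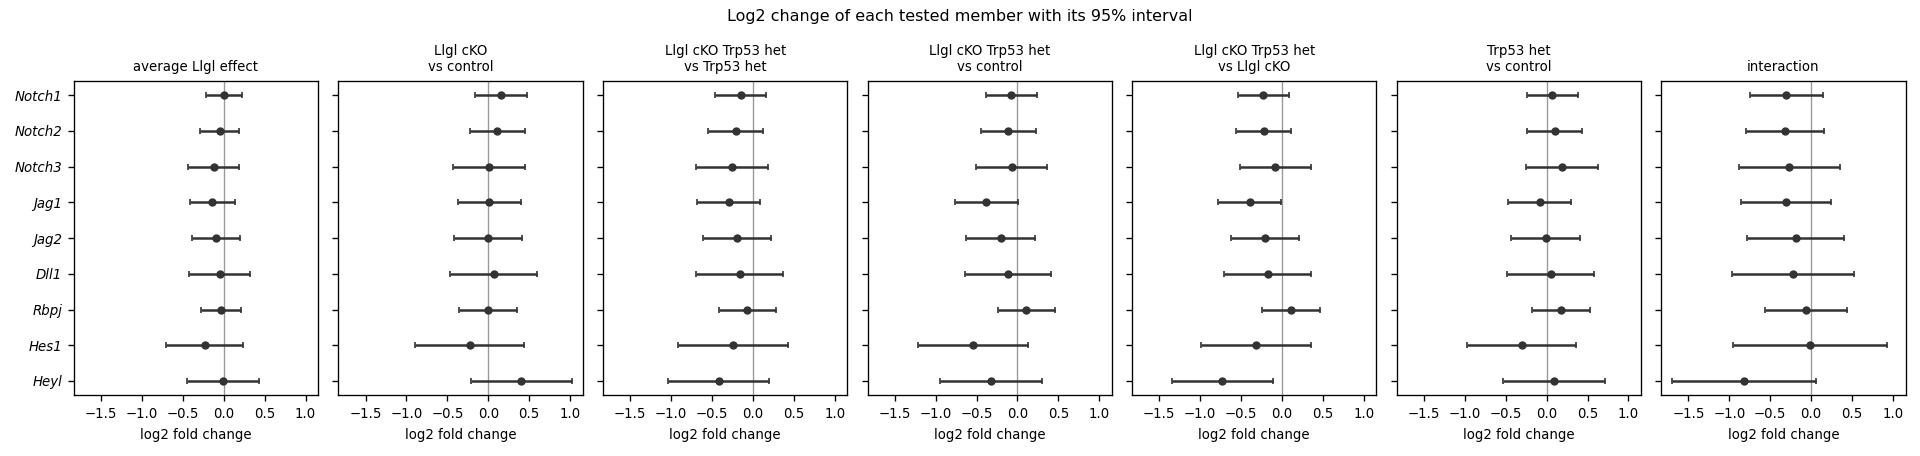
Log2 fold change of each of the 9 tested genes with its approximate 95% interval from the edgeR fit, in 7 comparisons (1 panel each), where a positive value means higher in the group named first. All points of Llgl cKO Trp53 het against Trp53 het lie left of 0, and every interval crosses 0 except those of Jag1 and Heyl in Llgl cKO Trp53 het against Llgl cKO.

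The genes around this core were taken from 8 further lists of Notch pathway genes, 62 genes in all, of which 53 were tested. In the average Llgl effect 3 of the 53 were called, Lfng and Adam10 higher and Ivl lower, against backgrounds of 1.18% called higher and 2.15% called lower, and 10 had an unadjusted p under 0.05, where 18.2% of all genes did. The log2 changes of the 53 were balanced, 27 positive and 26 negative, with a median of 0.021, and the median over all genes tested was -0.0026. In the pairwise comparisons and the interaction, edgeR called 0 of the 53, and between 1 and 9 of them had an unadjusted p under 0.05, where the shares over all genes were 0.432% to 15.4%. DESeq2 called Ivl, lower, in Llgl cKO Trp53 het against control (2.97% of all genes called lower) and against Trp53 het (3.14%), and in the average Llgl effect it called Lfng, Adam10, Ivl and Neurl1b (7.09% of all genes called).

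Lfng (chromosome 5, 140607320 to 140615545, plus strand), whose product shifts Notch receptors towards Delta-like and away from Jagged ligands, had 80.1, 77.2 and 78.4 CPM in Llgl cKO Trp53 het and 91.5, 96.4 and 64.7 CPM in Llgl cKO libraries, against 64.2, 50.4 and 60.5 CPM in Trp53 het and 51.5, 61.4 and 63.4 CPM in control libraries. Every library of the Llgl groups lay above every other library, Llgl cKO 3 only just. In the average Llgl effect Lfng rose by 0.47 in log2 units (SE 0.11, 95% interval 0.24 to 0.71, edgeR adjusted p = 0.0380, higher in 6 of 6 libraries). The log2 change was 0.52 in Llgl cKO against control and 0.43 in Llgl cKO Trp53 het against Trp53 het, neither of them called alone. The call was lost in 9 of the 12 fits that left out 1 library, with log2 changes from 0.42 to 0.55 and edgeR adjusted p from 0.0165 to 0.108. It was also lost without the libraries labelled Trp53 het 3 and Llgl cKO Trp53 het 1 (edgeR adjusted p = 0.0727). Among the other 4 tested genes of its list, on glycosylation and maturation of Notch, 0 were called, and Rfng, which encodes radical fringe, had a log2 change of 0.18 (edgeR adjusted p = 0.556).

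Adam10 (chromosome 9, 70678997 to 70780229, plus strand), the metalloprotease that makes the first ligand-dependent cut in Notch, had 134, 129 and 164.5 CPM in Llgl cKO Trp53 het and 137, 149 and 147.5 CPM in Llgl cKO libraries, against 97.7, 110.6 and 121 CPM in Trp53 het and 96.5, 119 and 118.5 CPM in control libraries. The 6 Llgl cKO libraries of both Trp53 genotypes all lay above the 6 others, as 1.29% of all genes tested did. Adam10 rose by 0.38 on the log2 scale (SE 0.092, 95% interval 0.17 to 0.58, edgeR adjusted p = 0.0498), and its change was alike with each Trp53 genotype, at 0.38 with Trp53 intact and 0.38 in Trp53 heterozygotes (interaction 0.00010, 95% interval -0.40 to 0.40). The call sat at the threshold and was lost in 10 of the 12 fits with 1 library left out (edgeR adjusted p from 0.0364 to 0.131), with upper-quartile scaling (edgeR adjusted p = 0.0544) and without the low-count filter (edgeR adjusted p = 0.0683). All 9 cleavage genes were tested. Of these 7 had positive log2 changes with a median of 0.033, and Ncstn, which encodes the gamma-secretase subunit nicastrin, had a log2 change of 0.24 (edgeR adjusted p = 0.159).

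Ivl (chromosome 3, 92570902 to 92573735, minus strand) encodes involucrin, a precursor of the cornified envelope made in suprabasal cells and a gene that Notch signalling is known to raise in cultured keratinocytes. It had 311, 355.5 and 241 CPM in Llgl cKO Trp53 het and 478, 275 and 377 CPM in Llgl cKO libraries, against 706, 715 and 432 CPM in Trp53 het and 916, 625 and 465 CPM in control libraries. Llgl cKO Trp53 het lay below both groups with intact Llgl genes without overlap, whereas Llgl cKO 1 lay above control 3. In the average Llgl effect Ivl fell by 0.93 in log2 units (SE 0.21, 95% interval -1.38 to -0.48, edgeR adjusted p = 0.0317). The log2 change was negative in all 12 fits with 1 library left out, between -1.03 and -0.79, and the call was lost in 10 of them (edgeR adjusted p from 0.0126 to 0.0901). Control 3 and the library labelled Trp53 het 3 had the lowest Ivl of their groups, and leaving them out was chosen after the data were seen. Without them Ivl fell by 1.03 in Llgl cKO against control (edgeR adjusted p = 0.0474), in a fit that called 1.19% of all genes tested lower. In the same setting Ivl fell by 1.35 in Llgl cKO Trp53 het against control (edgeR adjusted p = 0.00658, 4.09% of all genes called lower). Against Trp53 het it fell by 1.23 (edgeR adjusted p = 0.0109, 3.77% of all genes called lower). Removing the libraries with the lowest Ivl of their groups widens the separation by choice, so the calls of this setting are no independent support. Of the other 5 Notch-linked keratinocyte genes 0 were called, and Trp63, which encodes a transcription factor of basal keratinocytes, had a log2 change of 0.21 (edgeR adjusted p = 0.428). In the average Llgl effect the spinous list (6 tested) and the granular list (7 tested) had 0 genes called, where 3.33% of all genes were. Negative log2 changes were seen for 4 of the 6 spinous and 5 of the 7 granular genes, with medians of -0.11 and -0.17. The granular list ran from -1.47 to 0.21, with a smallest edgeR adjusted p of 0.0909.

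Nrarp, a small protein and Notch target that feeds back on Notch activity, had 102, 118.1 and 118 CPM in Llgl cKO Trp53 het and 105, 105 and 127 CPM in Llgl cKO libraries, against 153, 138 and 105 CPM in Trp53 het and 169, 147 and 108 CPM in control libraries. Controls 1 and 2 and Trp53 het 1 and 2 were higher than every library of the Llgl groups, whereas control 3 and the library labelled Trp53 het 3 lay within the range of those groups. Its average Llgl effect was -0.28 on the log2 scale (95% interval -0.56 to -0.0057, edgeR adjusted p = 0.264). Without control 3 and the library labelled Trp53 het 3, a setting chosen after the data were seen, Nrarp fell by 0.43 in the average Llgl effect (edgeR adjusted p = 0.0106). That fit called 7.78% of all genes tested lower. Nrarp was also called lower there in Llgl cKO Trp53 het against control, as were 4.09% of all genes tested. Leaving out the libraries that overlapped the Llgl groups separates the rest by choice, so these calls are no independent support. Of the other Hes and Hey genes, 4 of 6 did not pass the filter, and Hes6 had a log2 change of 0.23 (edgeR adjusted p = 0.388). The 3 tested genes of this list, with Nrarp, ran from -0.33 to 0.75 in Llgl cKO against control. They ran from -1.49 to 0.0059 in Llgl cKO Trp53 het against Llgl cKO, where 1 had an unadjusted p under 0.05, as 5.12% of all genes did. In these comparisons 0 of the 3 were called, against 0.226% and 0% of all genes.

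The remaining lists held 0 called genes in the average Llgl effect. Of 7 genes for ligand ubiquitination and endocytosis, Neurl1b, a ubiquitin ligase, had 25.2, 31.9 and 19.0 CPM in Llgl cKO Trp53 het and 23.8, 23.2 and 26.1 CPM in Llgl cKO libraries, against 37.3, 34.2 and 37.0 CPM in Trp53 het and 31.7, 26.2 and 30.6 CPM in control libraries. Its log2 change was -0.39 (edgeR adjusted p = 0.0992), which DESeq2 called with an adjusted p of 0.0398. Neurl1a, its paralogue, had a log2 change of 0.46 (edgeR adjusted p = 0.246). In the list of Notch endocytosis and turnover 8 of 9 tested genes had negative log2 changes, with a median of -0.18, among them Fbxw7, the ubiquitin ligase subunit that marks the cleaved receptor for degradation, at -0.18 (edgeR adjusted p = 0.230), and Dtx3l at -0.36 (edgeR adjusted p = 0.270). The 12 nuclear cofactors had a median of -0.062, with the acetyltransferase gene Kat2b at -0.30 (edgeR adjusted p = 0.135) and the corepressor gene Ctbp1 at 0.15 (edgeR adjusted p = 0.289). Without control 3 and the library labelled Trp53 het 3, a setting chosen after the data were seen, Kat2b fell by 0.37 in the average Llgl effect (edgeR adjusted p = 0.0358). In Llgl cKO Trp53 het against control it fell by 0.57 there (edgeR adjusted p = 0.0408). That fit called 7.78% and 4.09% of all genes tested lower in these comparisons. Since the setting was chosen after the data were seen, these calls are no independent support. Of the other receptors and ligands, Notch4 had a log2 change of 0.25 (edgeR adjusted p = 0.690) and Dlk2 0.14 (edgeR adjusted p = 0.832), while Dll3, Dll4 and Dlk1 did not pass the filter.

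**Figure D4:**
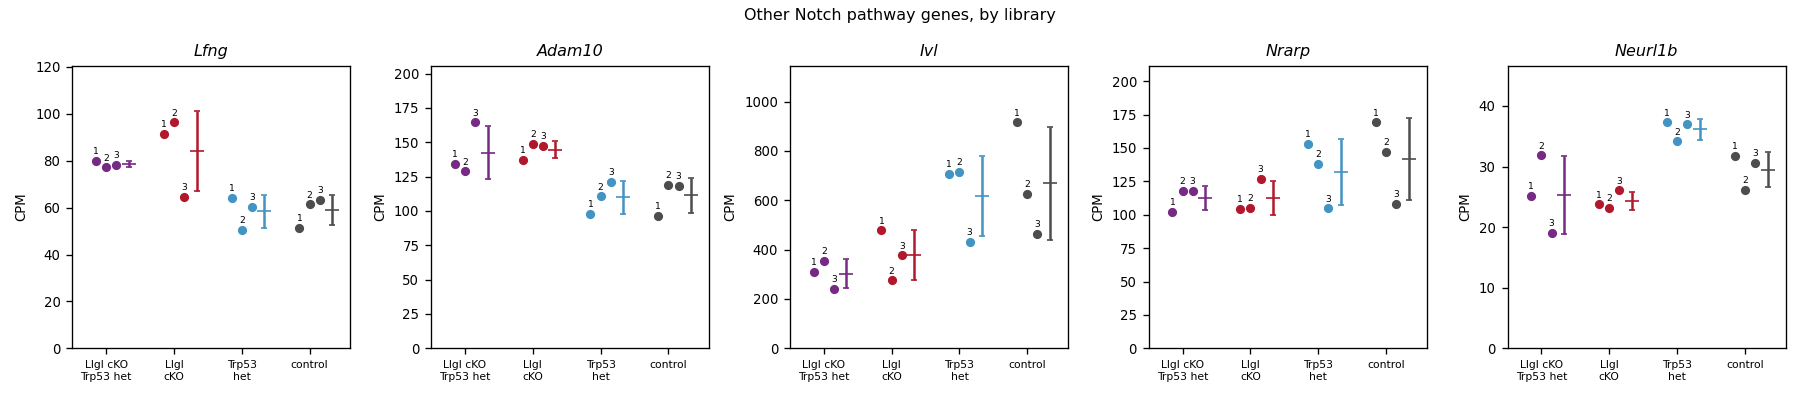
CPM of Lfng, Adam10, Ivl, Nrarp and Neurl1b in the 12 libraries by genotype group, with points numbered by replicate and group mean ± SD beside them (n = 3). Lfng and Adam10 are higher in all 6 libraries of the Llgl groups, Ivl is lower in most of them, and Nrarp is low in control 3 and Trp53 het 3 as well as in the Llgl groups.

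Control 3 and the library labelled Trp53 het 3 stood apart from the others of their groups. The summed level of 8 cell cycle genes was 653 to 869 CPM in Llgl cKO Trp53 het and 550.1 to 657 CPM in Llgl cKO libraries. Against this it was 1181 CPM in Trp53 het 3 and 1024 CPM in control 3, but 145 to 231 CPM in the other 4 libraries of those groups. Of the 9 tested Notch genes, 7 were lowest of their group in control 3 and 7 in Trp53 het 3, where 39.1% and 39.7% of all genes tested had their lowest value. The 2 sets shared Notch1, Notch2, Notch3, Jag2, Dll1 and Hes1. The mean log2 level of the 9 genes, relative to the 12 libraries, was -0.17 in control 3 and -0.14 in Trp53 het 3, close to the -0.17 to -0.14 of Llgl cKO Trp53 het, while the other 4 libraries lay between 0.099 and 0.16. The summed level of a list of 19 genes of the hair shaft and root sheath was 168 to 547 CPM in Llgl cKO Trp53 het, below every other library. It was 1173 to 3871 CPM in Llgl cKO, against 2501 to 6287 CPM in Trp53 het and 1725 to 7745 CPM in control libraries. Llgl cKO, Trp53 het and control overlapped. In the average Llgl effect 14 of 19 tested genes of the list were called lower, against 2.15% of all genes tested. The part of either list in the Notch gene values was not tested.

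**Figure D5:**
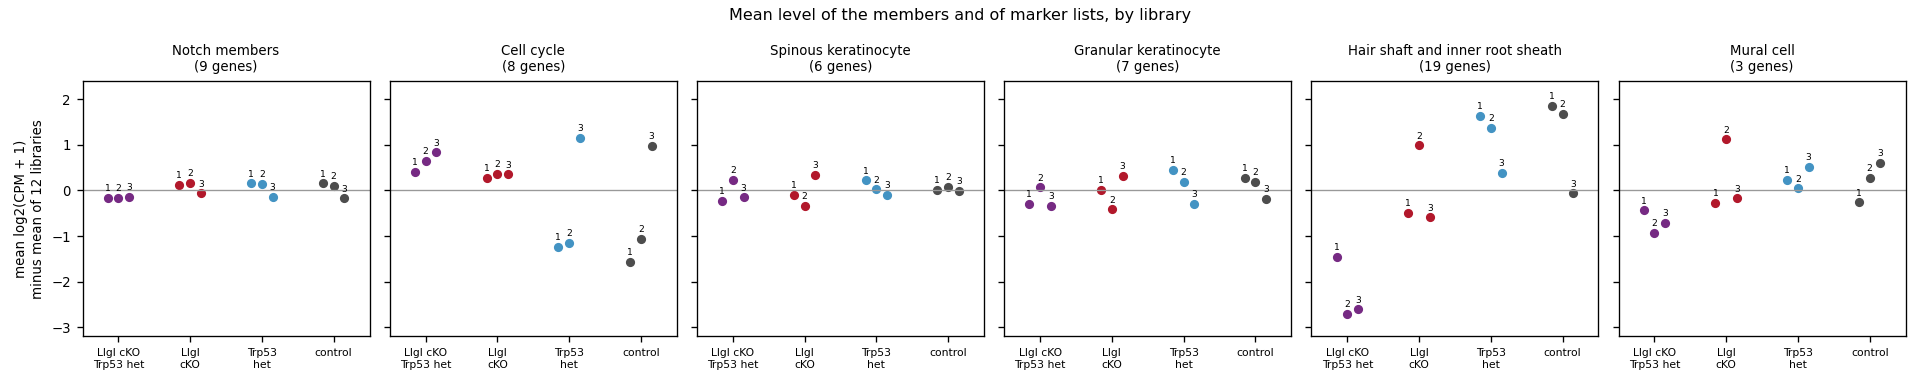
Mean log2(CPM + 1) of the tested genes of 6 lists in each library, minus the mean of the 12 libraries, with points numbered by replicate. For the Notch genes, control 3 and Trp53 het 3 lie low beside the 3 Llgl cKO Trp53 het libraries, and the same 2 libraries lie highest for the cell cycle genes.

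Variation among the Notch genes followed no single order with level. The biological coefficient of variation, the spread between mice beyond counting noise that edgeR fits, was 14.4% for Notch1 and 14.9% for Notch2, below the median of 19.2% over all genes tested, and 26.6% for Hes1 and 25.3% for Heyl, above it. Rbpj, far below Notch1 in CPM, had 15.8%. Across the 12 libraries the genes whose log2 level was most like that of Jag1, the member with the smallest p in the average Llgl effect, were Pvrl3 with Pearson's r of 0.958 and Spearman's rho of 0.650, Nktr with 0.923 and 0.608, and Zfp830 with 0.907 and 0.615. Pvrl3 encodes the adhesion protein nectin-3. These values share the low library Llgl cKO Trp53 het 2, and without it and Llgl cKO 2, the 2 farthest from the median of Jag1, r was 0.712, 0.445 and 0.411 over 10 libraries.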

How the data were processed

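Polyadenylated RNA of newborn epidermis was sequenced from stranded mRNA libraries, per the labels' protocols. The authors deposited raw counts per gene, and STAR, featureCounts 1.6.4, DESeq2 2.11.40.8 and GRCm38 are named in the submitters' processing notes. The annotation release and the strand setting of the counting were not given in the sources used here. From these counts, edgeR 4.0.16 in R 4.3.3 fitted TMM-scaled quasi-likelihood models with robust estimation to 12 libraries with group means (8 residual degrees of freedom), after filterByExpr with a minimum count of 10 left 14582 genes. P-values measure the spread between mice. Standard errors and 95% intervals were derived from the F statistic and are approximate. Exon lengths and positions came from GENCODE release M21, which held 45143 of the 46078 identifiers, and promoters from RefSeq (GRCm38.p6). The fitting procedure was tested on simulated data.

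The genes and lists were chosen with earlier results of these data known. Named were the 10 Notch genes, every listed pathway gene called in any comparison, the 2 with the smallest p of each pathway list in the average Llgl effect, and 3 genes most like the member with the smallest p. The cell type lists used for endothelial, fibroblast, melanocyte, immune, adipocyte, hair matrix and sebaceous cells are summarised in the closing section.

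Tried besides were DESeq2 1.42.0, scaling by upper quartiles or by DESeq2-style size factors (RLE), no filter, at least 1 CPM in 3 libraries, only the groups compared, a block for the replicate number, and fits without each library in turn. Leaving out pairs of libraries was chosen after seeing the data. Deviations of same-numbered libraries of Trp53 het and control from their group means correlated at 0.700, 0.263 and 0.870 across genes. Within a group of 3 libraries these deviations cancel out, so a state shared by control 3 and Trp53 het 3 can raise all of these correlations. They do not establish a pairing of the mice, and the labels state none. The main fit used group means without pairing.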

Additional observations from a re-analysis of the deposited data

How the results depend on the processing

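None of the 9 tested Notch genes was called under DESeq2, RLE or upper-quartile scaling, either filter, a fit of only the groups compared, the replicate block, any fit without 1 library, or without Trp53 het 3 and Llgl cKO Trp53 het 1. The exception, 1 gene (Hes1, Llgl cKO Trp53 het against control), came without control 3 and Trp53 het 3. Counts over all genes depended on the setting more, and the cause was not tested. DESeq2 called 114 genes in Llgl cKO against control, 644 in Llgl cKO Trp53 het against control, 722 against Trp53 het, 49 against Llgl cKO (2 higher and 47 lower) and 1034 in the average Llgl effect, where edgeR called 33, 182, 198, 0 and 485. Fits of only the groups compared called 49 and 117 genes in Llgl cKO Trp53 het against control and against Trp53 het. Without control 3 and Trp53 het 3, 413 genes (238 higher, 175 lower) were called in Llgl cKO against control, 1139 (536 and 603) in Llgl cKO Trp53 het against control, 1088 (532 and 556) against Trp53 het, 1 in Trp53 het against control, 1 in Llgl cKO Trp53 het against Llgl cKO and 2334 (1185 and 1149) in the average Llgl effect, where the 12 libraries gave 13 and 20, 50 and 132, 64 and 134, 0, 0, and 172 and 313. With 1 library left out the counts ran from 15 to 42, 25 to 351, 24 to 322, 0 to 1, 0 to 1 and 164 to 697 in the same order. In the 4 comparisons with calls in the 12 libraries the lowest came without control 2 or Llgl cKO Trp53 het 3 and the highest without control 3 or Trp53 het 3. The single call in Trp53 het against control came without control 3, and that in Llgl cKO Trp53 het against Llgl cKO without Llgl cKO 3 or without Llgl cKO Trp53 het 3.

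A fit with a replicate block called 347 genes in Llgl cKO Trp53 het against control and 376 against Trp53 het, with 31, 0, 0, 664 and 0 in Llgl cKO against control, Trp53 het against control, Llgl cKO Trp53 het against Llgl cKO, the average Llgl effect and the interaction. The block calls included Ivl, lower, in Llgl cKO Trp53 het against control (adjusted p = 0.0328) and against Trp53 het (0.0468). The replicate numbers are not stated to pair any mice. Between groups other than Trp53 het and control, deviations of same-numbered libraries correlated at -0.378 to 0.205. Under the block Jag2 had a log2 change of 0.0016 in Llgl cKO against control and 0.00077 in Trp53 het against control.

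Signs that turned belonged to changes near 0 and none of them was called. Without the low-count filter Jag2 had 0.026 in Llgl cKO against control and 0.0039 in Trp53 het against control, Rbpj 0.024 in Llgl cKO against control and Heyl 0.0021 in the average Llgl effect. DESeq2 gave Rbpj 0.00019 in Llgl cKO against control. Without control 3 and Trp53 het 3, Llgl cKO against control gave Notch3 -0.13, Jag1 -0.030 and Dll1 -0.10, and the average Llgl effect gave Notch1 -0.075, Heyl 0.10 and Dlk2 -0.13. Without Trp53 het 3 and Llgl cKO Trp53 het 1, Jag2 had 0.096 and Heyl -0.054 in Trp53 het against control, and Notch1 -0.014 and Heyl 0.00012 in the average Llgl effect. Log2 changes whose sign turned when 1 library was left out are given by their range. For Llgl cKO against control these were Notch2 between -0.024 and 0.21, Notch3 between -0.13 and 0.14, Jag1 between -0.069 and 0.10, Jag2 between -0.15 and 0.20, Dll1 between -0.12 and 0.22 and Rbpj between -0.14 and 0.18. For Llgl cKO Trp53 het against control these were Notch1 between -0.15 and 0.050 and Notch3 between -0.21 and 0.059. For Llgl cKO Trp53 het against Trp53 het these were Dll1 between -0.36 and 0.12. For Trp53 het against control these were Notch1 between -0.027 and 0.21, Jag1 between -0.13 and 0.0032, Jag2 between -0.16 and 0.20, Dll1 between -0.23 and 0.25 and Heyl between -0.053 and 0.17. For Llgl cKO Trp53 het against Llgl cKO these were Notch3 between -0.19 and 0.049, Dll1 between -0.33 and 0.0063 and Rbpj between -0.072 and 0.25. For the average Llgl effect these were Notch1 between -0.039 and 0.064, Notch2 between -0.13 and 0.00013, Dll1 between -0.15 and 0.093, Rbpj between -0.10 and 0.054, Heyl between -0.10 and 0.14 and Dlk2 between -0.0085 and 0.39. For the interaction these were Dll1 between -0.42 and 0.051, Rbpj between -0.26 and 0.073 and Hes1 between -0.26 and 0.23. Depth limits Hey1, which had 2 to 13 counts per library.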

Other observations

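Other cell types in the tissue moved as follows in the average Llgl effect. Of 12 endothelial genes only 2 passed the filter, both with positive log2 changes and 0 called, and the summed level of the 12 was 5.21 to 7.06 CPM in Llgl cKO Trp53 het and 5.28 to 8.11 CPM in Llgl cKO, against 3.92 to 6.70 CPM in Trp53 het and 2.45 to 6.29 CPM in control libraries. The endothelial cadherin gene Cdh5 was at 0 in 9 of 12 libraries. Called lower were 2 of 6 tested T cell genes, 3 of 6 sebaceous gland genes and 2 of 2 adipocyte genes, against 2.15% of all genes tested. Called higher were 1 of 6 fibroblast and 1 of 7 hair matrix genes, against 1.18% of all genes tested. No gene was called among 8 basal keratinocyte, 7 melanocyte, 5 Langerhans cell and macrophage, and 8 cell cycle genes tested, against 3.33% of all genes.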
